A study of Mus musculus with 15 samples.

Results

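The submandibular glands of NOD/LTJ mice were compared with those of ICR mice in 15 bulk RNA-seq libraries, which are all the libraries of the series. The ICR side held 5 libraries from mice with no treatment (control 1 to 5). The NOD/LTJ side held 10 libraries, 5 from mice with no treatment (model 1 to 5) and 5 from mice given SJQYD, a treatment known here only by its letters (SJQYD 1 to 5). All 15 carry the genotype label WT, and the labels used here give no age, no sex and no hour of collection. The comparison asks which strain differences are present both with and without SJQYD, in a study placed by its title in Sjögren's syndrome. ICR is an outbred stock and NOD an inbred strain, so strain, outbreeding and disease cannot be told apart in this design. The labels do not say that the libraries of a group came from separate mice, so p-values measure the spread between these samples, which may be technical.

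NOD mice are used as a model of autoimmune diabetes and of Sjögren's syndrome, because lymphocytes gather in the pancreas and in the salivary and lacrimal glands. The submandibular gland is made of acinar cells, which secrete fluid and mucin-like proteins, and of granular ducts, which store growth factors and kallikreins. NOD mice carry their own set of major histocompatibility complex (MHC) genes, whose class I products show peptides to cytotoxic T cells and whose class II products show peptides to helper T cells. Interferons raise many genes of class I presentation, and natural killer (NK) cells read class I molecules through lectin-like receptors of the Ly49 (Klra) family.

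Levels are CPM, normalised read counts on the TMM scale. A range joined by a dash runs from the lowest to the highest library of a group, and 3 values of a group are its lowest, median and highest. Total counts ran from 39510018 to 68694263 per library, and 18136 of 55401 genes passed the filter on low counts and were tested with edgeR. Mucl2, a mucin-like secretory product and a marker of the submandibular acinar cell, took 42.2 to 53.8% of the counts in the ICR libraries, 25.8 to 45.6% in the untreated NOD libraries and 15.5 to 46.4% in the treated ones, so the labelled gland was present in every library. Amy1, Bpifa2, Smr3a and Chia1, abundant in the adjoining parotid gland, together took 4.17% of counts in control 2, 16.0% in model 3 and 6.50% in SJQYD 1, against at most 2.11% elsewhere. The RNA of the inactive X chromosome, Xist, stood at 1.01 CPM in SJQYD 3 and at 162 to 270.2 CPM in the other 14 libraries. The Y-linked genes Ddx3y, Eif2s3y, Kdm5d and Uty were near 0 in SJQYD 3 too, at 0.109, 0.0621, 0 and 0 CPM. Control 4 had 0.207, 0.0751, 0 and 0 CPM of them. The reason for the low Xist was not tested. Each library was also left out in turn, and a left-out library that moves a count given for a list by over 1.5 times is named beside it. In bulk tissue, fewer cells of a type and less RNA per cell cannot be told apart.

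Called genes are those with a Benjamini-Hochberg adjusted p under 0.05. Against the ICR libraries, 1829 of the 18136 tested genes (10.1%) were called in the pooled NOD libraries, 781 higher (4.31%) and 1048 lower (5.78%), and 483 of them (2.66%) differed at least 2-fold, 296 higher (1.63%) and 187 lower (1.03%). The calls numbered 983 without control 1, 1210 without control 3, 1022 without control 5 and 2657 without control 2, and those of at least 2-fold 859 without control 2. The untreated NOD libraries alone gave 920 calls (5.07%), with 2.57% of genes higher and 2.5% lower. The treated ones gave 2017 (11.1%), with 5.22% higher and 5.9% lower. Both used the same 5 control libraries. Between treated and untreated NOD 498 genes were called (2.75%), 1.91% higher and 0.838% lower with SJQYD. A difference was taken as held with and without treatment when the gene was called in the pooled comparison, in untreated NOD and in treated NOD with the same sign, and when its CPM did not overlap between the 10 NOD and the 5 ICR libraries. Such differences numbered 292 (1.61%), with 143 genes higher (0.788%) and 149 lower (0.822%) in NOD. Of the tested genes 526 (2.9%) met the 3 calls alone. No overlap was found for 435 (2.4%), 1.13% higher and 1.27% lower in NOD.

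The held genes had a median log2 fold change of 1.19 among those higher and -0.90 among those lower, beside 0.04 over all tested genes. At least 2-fold differences made up 146 of the 292, with 84 higher and 62 lower. Without control 2 the held genes numbered 702, of which 284 were among the 292. Without the 3 parotid-rich libraries 662 were held, including 244 of the 292, and without model 2 the number was 189. Leaving out SJQYD 3 gave 274. On the authors' FPKM values, as log2(FPKM + 1), 97.9% of the called genes were higher in NOD, beside 42.7% on counts. The median over all genes was 0.31 on that scale, so the small falls given below are falls on the TMM scale of the counts. Of the 292 held genes, 105 were held on that FPKM scale too.

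**Figure D1:**
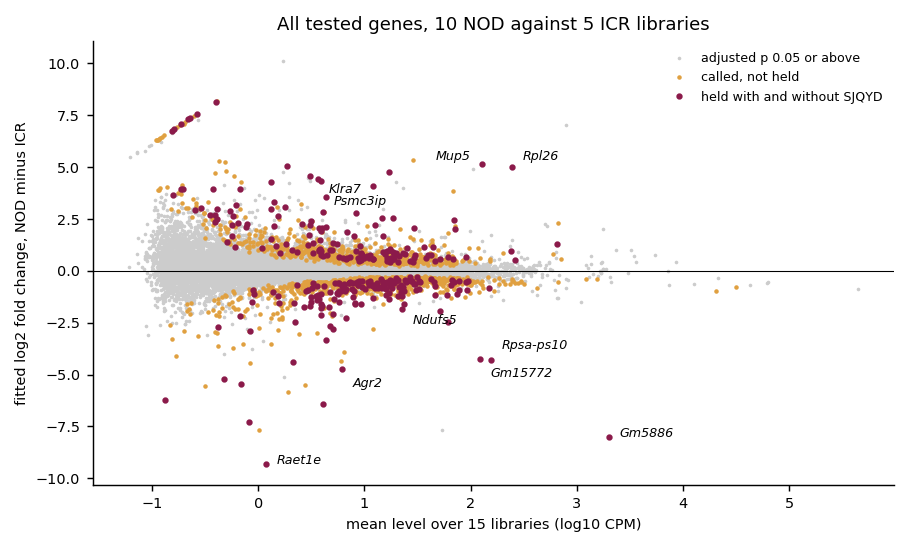
Fitted log2 fold change of NOD against ICR (y axis) by the mean level over 15 libraries (x axis, log10 CPM), with 1 point for each of the 18136 tested genes. The 292 genes held with and without SJQYD are dark red, and the other called genes are orange. Rpl26 lies at 5.00 and its near-identical copy Gm15772 at -4.23, on opposite sides of 0. Genes at lower levels reach farther, such as Angpt4 at 8.16 and Raet1e at -9.33.

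The 4 genes with the smallest p-values, all held, lay in pairs made of a gene and a near-identical processed copy of it, a stretch of genome that arose from a reverse-transcribed mRNA. In these pairs 1 member was higher in NOD and the other in ICR. Rpl26 (ENSMUSG00000060938, chr11:68901583-68906989, GRCm38) and Rpl30 (ENSMUSG00000058600, chr15:34440505-34443640) encode proteins of the large ribosomal subunit. Rpsa (chr9:120127689-120132369) encodes a protein of the small ribosomal subunit, and Ndufs5 (chr4:123712710-123718202) encodes an accessory subunit of respiratory complex I. The copies are Gm15772 (chr5:3236431-3236868), Gm12191 (chr11:49678710-49679057), Rpsa-ps10 (chr3:150072658-150073542) and Ndufs5-ps (chr16:42955631-42955949).

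The stretches of 120 coding bases below show how little separates a gene from its copy in the reference annotation. Capitals mark the bases at which both differ, and positions are counted from 1 at the start of each stretch.
Rpl26, coding bases 169 to 288: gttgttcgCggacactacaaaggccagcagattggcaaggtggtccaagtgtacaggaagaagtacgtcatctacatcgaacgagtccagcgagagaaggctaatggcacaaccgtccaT
Gm15772: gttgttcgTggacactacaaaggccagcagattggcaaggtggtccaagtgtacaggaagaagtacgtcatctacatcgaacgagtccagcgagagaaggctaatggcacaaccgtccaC
Ndufs5, coding bases 1 to 120: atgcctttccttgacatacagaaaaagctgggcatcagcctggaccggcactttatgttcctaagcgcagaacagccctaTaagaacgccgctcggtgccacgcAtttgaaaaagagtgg
Ndufs5-ps: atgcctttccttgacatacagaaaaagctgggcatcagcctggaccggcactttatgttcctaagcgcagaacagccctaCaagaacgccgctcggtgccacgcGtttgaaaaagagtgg
Rpl30, coding bases 1 to 120: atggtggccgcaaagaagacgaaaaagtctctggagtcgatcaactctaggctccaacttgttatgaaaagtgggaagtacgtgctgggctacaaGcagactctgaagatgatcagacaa
Gm12191: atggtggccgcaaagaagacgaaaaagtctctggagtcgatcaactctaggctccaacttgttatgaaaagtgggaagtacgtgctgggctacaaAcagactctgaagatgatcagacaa
Rpsa, coding bases 100 to 219: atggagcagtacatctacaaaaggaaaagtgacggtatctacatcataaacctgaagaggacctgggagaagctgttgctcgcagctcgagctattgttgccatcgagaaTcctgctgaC
Rpsa-ps10: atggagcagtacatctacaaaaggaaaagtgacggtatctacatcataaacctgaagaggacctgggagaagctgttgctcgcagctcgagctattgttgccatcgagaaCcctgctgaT
From gene to copy these substitutions are C9T and T120C for Rpl26, T81C and A105G for Ndufs5, G96A for Rpl30, and T111C and C120T for Rpsa. Over the whole coding sequence the identity was 99.54% for Rpl26 and Gm15772, 99.37% for Ndufs5 and Ndufs5-ps, 99.71% for Rpl30 and Gm12191, and 99.32% for Rpsa and Rpsa-ps10. How reads that match a gene and its copy equally well were placed is not given in the sources used here, so each member's level is uncertain on its own.

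Rpl26 stood at 12.2, 8.63, 8.1, 13.2 and 14.4 CPM in control 1 to 5, at 407, 403, 376, 337 and 358 CPM in model 1 to 5 and at 320.5, 419, 313, 368 and 312 CPM in SJQYD 1 to 5. Rpl26 had a log2 fold change of 5.0 ± 0.18 SE, with an edgeR adjusted p of 8.3e-12. Gm15772 stood at 317, 336, 359.9, 313 and 318 CPM in the control libraries, 18.8, 20.3, 20.3, 17.6 and 18.1 CPM in the model libraries and 13.4, 19.2, 13.7, 17.9 and 16.4 CPM in the SJQYD libraries. Gm15772 had a log2 fold change of -4.23 ± 0.1 SE, with an edgeR adjusted p of 1.35e-14. Neither gene had any overlap between strains, which the definition of held genes requires, and the treated and untreated NOD libraries lay together. Summed over the 7 members of this copy family, the level was 344 ± 17.7 CPM in ICR (SD, n = 5) and 383 ± 42.8 CPM in NOD (SD, n = 10).

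Ndufs5 read 41.4, 35.4, 39.8, 49.02 and 51.9 CPM in control 1 to 5, 10.8, 15.3, 12.4, 11.3 and 11.5 CPM in model 1 to 5 and 10.2, 13.2, 9.82, 13.9 and 12.1 CPM in SJQYD 1 to 5. Ndufs5 had a log2 fold change of -1.85 ± 0.11 SE, with an edgeR adjusted p of 2.4e-08. Ndufs5-ps read 0.895, 0.81, 1.08, 0.807 and 0.967 CPM, 30.1, 26.1, 24.5, 27.7 and 26.7 CPM and 19.5, 22.8, 25.2, 22.4 and 26.8 CPM in the same order. Ndufs5-ps had a log2 fold change of 4.78 ± 0.13 SE, with an edgeR adjusted p of 7.92e-14. Every NOD library was low in the gene and high in the copy, and the sum of both was 44.4 ± 6.78 CPM in ICR and 37.2 ± 3.35 CPM in NOD (SD, n = 5 and 10). Rpl30 fell from 98.6–201 CPM in ICR to 17.8–32.6 CPM in NOD (log2 fold change -2.48 ± 0.17 SE, edgeR adjusted p = 1.94e-07), while its copies Gm12191 (log2 fold change 2.02 ± 0.18 SE, edgeR adjusted p = 4.34e-06) and Rpl30-ps9 (log2 fold change 2.56 ± 0.23 SE, edgeR adjusted p = 5.12e-06) rose. Over the 14 members of that family the sum was 184 ± 26.1 CPM in ICR and 167 ± 20.5 CPM in NOD.

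Rpsa rose from 199–526 CPM in ICR to 602–993 CPM in NOD (log2 fold change 1.31 ± 0.24 SE, edgeR adjusted p = 0.00316) and Rpsa-ps10 fell from 299.9–589 CPM in ICR to 15.04–27.8 CPM in NOD (log2 fold change -4.28 ± 0.16 SE, edgeR adjusted p = 2.11e-11). Control 1 and control 2 held the most Rpsa and the least Rpsa-ps10 of the ICR libraries, at 477 and 526 CPM of Rpsa against 299.9 and 322 CPM of the copy. The family of 13 summed to 782 ± 82.7 CPM in ICR and 855 ± 145 CPM in NOD. Ube2j2, an enzyme of ubiquitin conjugation at the endoplasmic reticulum, and its copy Gm5801 also moved in opposite directions (log2 fold changes of -0.51 ± 0.09 and 2.24 ± 0.36, SE).

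A different pattern held in the copies of Rps19, another protein of the small ribosomal subunit. There 5 held copies were all higher in NOD, from 21.7 ± 16.2 CPM in ICR to 118 ± 19.3 CPM in NOD when summed (SD, n = 5 and 10), and the family of 14 summed to 236 ± 29.0 and 338 ± 31.7 CPM.

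**Figure D2:**
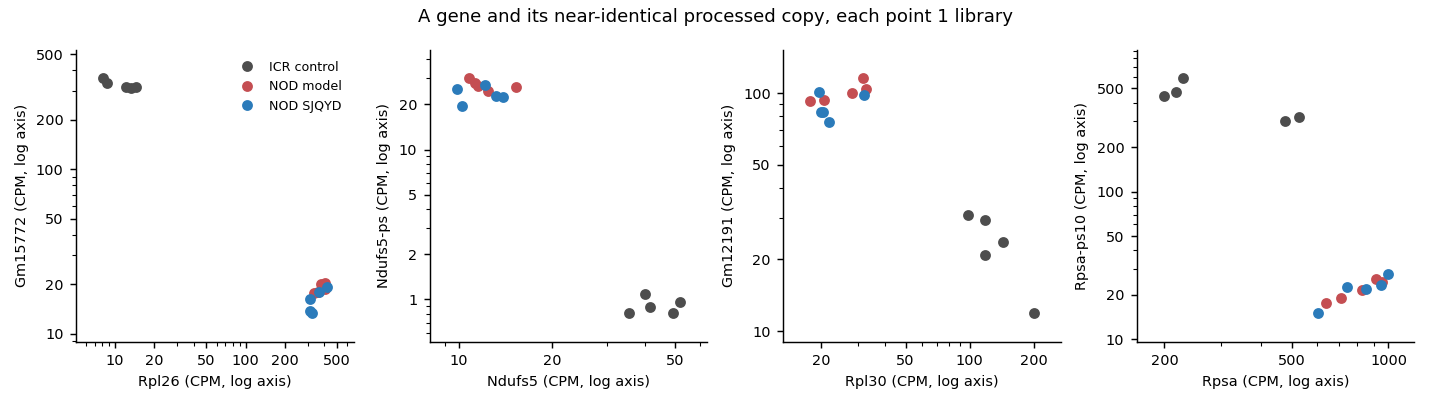
CPM of a gene (x axis, log) against CPM of its near-identical copy (y axis, log) in 4 pairs, with 1 point per library, grey for ICR, red for untreated NOD and blue for treated NOD. In each pair the 10 NOD points form a group apart from the 5 ICR points, at the opposite end of both axes, and treated and untreated NOD points mix. All genes shown are held, and held genes do not overlap between strains by definition.

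A copy with at least 95% identity over at least 50% of the shorter transcript was found for 98 of the 292 held genes (33.6%), against 23.4% of the tested genes with a transcript. For held genes with at least a 2-fold difference the share was 41.8%. When each of the 98 was summed with all its copies, the sum kept the direction without overlap for 59 and overlapped between strains for 39, and for 10 it pointed the other way. Pseudogenes made up 12.7% of the held genes and 7.43% of the tested ones. Of the genes described below, Rgs12, Rmnd1, Snhg15, Tob2, Mxi1, Raet1e, Tmem234, Btbd9 and Ryr1 have such copies, and for each of these 9 the sum with its copies kept its direction without overlap. For Rgs12, Tob2, Mxi1, Btbd9 and Ryr1 the copies left both strain means unchanged, and for Tmem234 and Snhg15 nearly so. These sums repeat the gene and test nothing further, and the 59 include such genes. Other genes with a copy are marked as they come.

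Outside these pairs, Mup5 had the largest rise among held genes of at least 5 CPM that are neither predicted genes nor pseudogenes. Mup5, a major urinary protein that carries pheromones, had 10.8, 0.72, 4.38, 2.65 and 5.74 CPM in control 1 to 5, 54.6, 127, 109, 1008 and 45.9 CPM in model 1 to 5 and 28.4, 78.5, 155, 75.6 and 229 CPM in SJQYD 1 to 5. Mup5 had a log2 fold change of 5.18 ± 1.07 SE, with an edgeR adjusted p of 0.0109. Model 4 stood far above the other NOD libraries, and without it the log2 fold change was 4.34. Slpi, an inhibitor of leukocyte proteases in secretions, was at 0.168, 0.396, 0, 1.67 and 0.309 CPM in control 1 to 5 and at 2.96, 4.98 and 13.8 CPM as lowest, median and highest in NOD (log2 fold change 3.57 ± 0.77 SE, edgeR adjusted p = 0.0121), and without control 4, the highest ICR library, the change was 4.76. With voom and quality weights in limma, another test on the counts, Slpi missed the threshold (adjusted p = 0.0505).

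Psmc3ip, a partner of the meiotic recombinases, was at 0.7, 0.486, 0.887, 0.901 and 0.926 CPM in control 1 to 5, 4.5, 5.45, 6.01, 6.42 and 3.63 CPM in model 1 to 5 and 5.94, 7.09, 5.94, 5.38 and 6.11 CPM in SJQYD 1 to 5. Psmc3ip had a log2 fold change of 2.85 ± 0.2 SE, with an edgeR adjusted p of 1.46e-07. The lowest NOD library, at 3.63 CPM, stood above the highest ICR library, at 0.926 CPM, and a gap of some size is required of held genes. Sphk1, the kinase that makes sphingosine 1-phosphate, read 2.24, 3.37, 3.92, 6.48 and 1.85 CPM, 15.1, 24.7, 14.7, 26.2 and 27.3 CPM and 13.1, 13.9, 9.19, 13.7 and 13.9 CPM in the same order. Sphk1 had a log2 fold change of 2.21 ± 0.28 SE, with an edgeR adjusted p of 0.000245. All model and SJQYD libraries were higher than the ICR ones, as for every held gene that rose, and SJQYD 3 was the lowest of the SJQYD libraries.

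Nlrc5, the transactivator of MHC class I genes, stood at 2.6, 18.9, 9.85, 3.89 and 11.4 CPM in control 1 to 5, 37.4, 37.7, 43.3, 30.5 and 34.7 CPM in model 1 to 5 and 24.8, 48.98, 30.9, 42.1 and 63.99 CPM in SJQYD 1 to 5. Nlrc5 had a log2 fold change of 2.07 ± 0.41 SE, with an edgeR adjusted p of 0.00798. Control 2 and control 5 were the ICR libraries nearest to NOD. Ctsw, a protease of cytotoxic T and NK cells, ran over 1.9–5.4 CPM in ICR and had 5.47, 9.89 and 19.02 CPM as lowest, median and highest NOD value. Ctsw had a log2 fold change of 1.7 ± 0.3 SE, with an edgeR adjusted p of 0.00328. Faap20, a member of the Fanconi anaemia core complex, ran over 4.16–5.65 CPM in ICR and 7.77, 11.2 and 14.3 CPM in NOD. Faap20 had a log2 fold change of 1.19 ± 0.15 SE, with an edgeR adjusted p of 0.000172. Rgs12, a regulator of G protein signalling, read 2.24–3.997 and 4.12, 5.67 and 15.6 CPM (log2 fold change 1.32 ± 0.34 SE, edgeR adjusted p = 0.0245), and its call was lost without control 1, 3, 4 or 5 (adjusted p = 0.0709, 0.0648, 0.054 and 0.073).

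A near-identical copy was found for Zfp729a and Tpm3-rs7. Zfp729a, a zinc finger protein, rose from 3.95–7.42 CPM to 15.4, 18.8 and 23.4 CPM (log2 fold change 1.7 ± 0.14 SE, edgeR adjusted p = 2.49e-06), and its 2 copies added almost no counts to it. Tpm3-rs7, a tropomyosin-related sequence, rose from 2.03–11.7 to 17.1, 24.1 and 38.6 CPM (log2 fold change 2.54 ± 0.4 SE, edgeR adjusted p = 0.00205; 3.27 without control 1, its highest ICR library). With its copy the Tpm3-rs7 sum went from 20.8 ± 4.48 CPM in ICR to 38.3 ± 8.16 CPM in NOD. Iglc1, a constant segment of the immunoglobulin lambda light chain for which no such copy was found, was at 0.028, 0.504, 0, 3.47 and 1.01 CPM in control 1 to 5 and at 6.24, 18.5 and 27.1 CPM as lowest, median and highest in NOD. Iglc1 had a log2 fold change of 4.07 ± 0.87 SE, with an edgeR adjusted p of 0.0124. Without control 4 the Iglc1 change was 5.41, and voom with quality weights gave it an adjusted p of 0.0674.

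Among the held falls Agr2, a protein disulfide isomerase needed for making mucins, was at 17.8, 9.85, 27.8, 16.8 and 12.8 CPM in control 1 to 5, 0.676, 0.715, 0.335, 0.894 and 0.446 CPM in model 1 to 5 and 0.833, 0.759, 0.419, 0.68 and 0.559 CPM in SJQYD 1 to 5. Agr2 had a log2 fold change of -4.75 ± 0.25 SE, with an edgeR adjusted p of 2.4e-09. Every NOD library was under 1 CPM, and every ICR library was far above that. Uox, the urate oxidase that breaks down uric acid, read 7.3, 3.12, 9.02, 3.19 and 5.27 CPM, 0.388, 0.0584, 0.0558, 0 and 0.0495 CPM and 0.155, 1.52, 0.59, 0.793 and 0 CPM in the same order. Uox had a log2 fold change of -4.41 ± 0.76 SE, with an edgeR adjusted p of 0.00348. It was under 1 CPM in 9 of the 10 NOD libraries, and without model 1 its log2 fold change was -5.11.

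Several falls were in genes of the cell surface. Ly6e, a lipid-anchored protein of the Ly6 family, had 67.5, 124, 83.95, 98.2 and 128 CPM in control 1 to 5, 36.03, 34.2, 34.1, 22.1 and 27.9 CPM in model 1 to 5 and 23.3, 21.9, 19.7, 17.6 and 28.5 CPM in SJQYD 1 to 5. Ly6e had a log2 fold change of -1.94 ± 0.15 SE, with an edgeR adjusted p of 7.82e-07. Its relative Ly6d fell from 5.56–13.9 CPM in ICR to 1.41–3.69 CPM in NOD (log2 fold change -1.74 ± 0.26 SE, edgeR adjusted p = 0.000706). Sdc2, a heparan sulfate proteoglycan, fell from 6.04–8.37 CPM in ICR to 1.52–3.2 CPM in NOD (log2 fold change -1.68 ± 0.14 SE, edgeR adjusted p = 2.49e-06), a narrow range in both strains.
Tspan8, a tetraspanin, fell from 3.72–18.6 CPM in ICR to 1.04–2.63 CPM in NOD (log2 fold change -2.11 ± 0.28 SE, edgeR adjusted p = 0.000321), with a log2 fold change of -1.51 without control 5, which alone reached 18.6 CPM. Gucy2c, the guanylate cyclase that binds guanylin, fell from 5.71–16.6 CPM in ICR to 0.78–4.31 CPM in NOD (log2 fold change -2.08 ± 0.38 SE, edgeR adjusted p = 0.00395). Bst1, an enzyme of ADP-ribose metabolism on lymphoid and stromal cells, fell from 4.51–9.83 CPM in ICR to 1.31–4.5 CPM in NOD (log2 fold change -1.6 ± 0.26 SE, edgeR adjusted p = 0.00151); its highest NOD and lowest ICR libraries nearly met.

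The other large falls were in enzymes and intracellular proteins. Sdr39u1, of the short-chain dehydrogenases, fell from 6.74–22.5 CPM in ICR to 0.997–5.27 CPM in NOD (log2 fold change -2.28 ± 0.35 SE, edgeR adjusted p = 0.00145). Ppp2r3a, a regulatory subunit of protein phosphatase PP2A, fell from 12.1–21.4 CPM in ICR to 3.08–7.19 CPM in NOD (log2 fold change -1.59 ± 0.18 SE, edgeR adjusted p = 6.83e-05). Rmnd1, needed for mitochondrial translation, fell from 8.02–24.5 CPM in ICR to 3.59–5.94 CPM in NOD (log2 fold change -1.57 ± 0.2 SE, edgeR adjusted p = 0.000231). None of the 3 overlapped between strains, which the definition of held genes requires. Polr2k, a subunit shared by the RNA polymerases, fell from 2.27–8.97 CPM in ICR to 1.29–2.19 CPM in NOD (log2 fold change -1.71 ± 0.25 SE, edgeR adjusted p = 0.000672), but with its 5 copies the sum overlapped between strains (6.38 ± 2.5 against 2.96 ± 0.373 CPM).

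**Figure D3:**
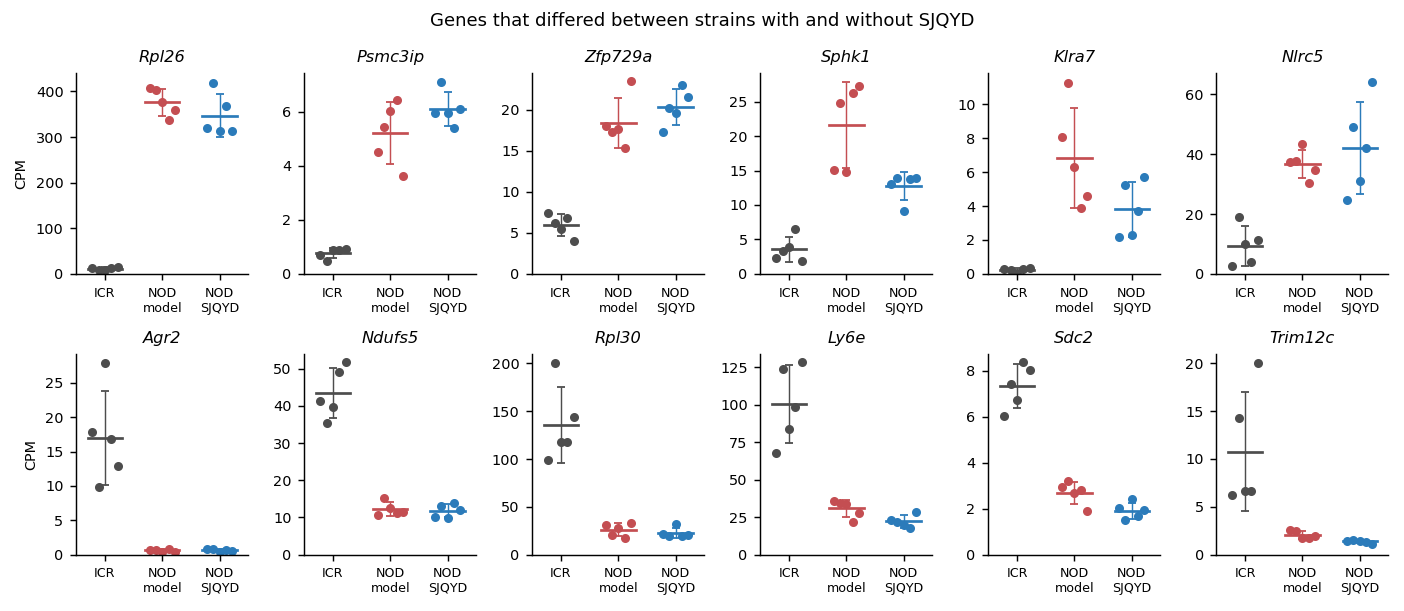
CPM of 12 held genes (y axis of each panel, from 0) in ICR (grey), untreated NOD (red) and treated NOD (blue), with 1 point per library, a line at the mean and an error bar of 1 SD (n = 5). In every panel both NOD groups lie on the same side of the ICR points, as held genes do by definition, higher for the first 6 genes and lower for the last 6.

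Treated and untreated NOD glands also differed in 7 of the 292 held genes (2.40%, where 2.75% of all tested genes were called between them). These genes were chosen for that reason after their values were seen. Snhg15, a noncoding host of a small nucleolar RNA, stood at 9.65–11.02 CPM in ICR, 12.1–20.02 CPM in the model and 21.3–28.6 CPM in the SJQYD libraries (SJQYD minus model 0.71 ± 0.13 SE, edgeR adjusted p = 0.0086). Rab3gap2, a regulator of Rab GTPases, followed with 9.89–15.6, 19.3–27.5 and 29.6–46.3 CPM (SJQYD minus model 0.68 ± 0.14 SE, edgeR adjusted p = 0.0139). Tob2, of a family that slows cell division, had 6.55–8.1, 9.27–12.2 and 14.9–18.5 CPM (SJQYD minus model 0.64 ± 0.11 SE, edgeR adjusted p = 0.00413), and Gm26532 had 1.82–3.31, 3.42–5.61 and 6.47–10.6 CPM (log2 0.96). In these 4 genes treated NOD glands lay farther above ICR than untreated ones.

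The other 3 lay below ICR and were lower again with SJQYD. Mxi1, an antagonist of Myc, read 15.2–17.2 CPM in ICR, 10.9–12.8 CPM in model and 7.46–9.89 CPM in SJQYD libraries (SJQYD minus model -0.41 ± 0.1 SE, edgeR adjusted p = 0.0289). The ubiquitin ligase Lnx2 read 10.9–14.1, 7.96–10.7 and 5.25–7.35 CPM (log2 -0.59), and Fhdc1, a formin-domain protein, 13.04–17.98, 9.63–12.5 and 7.73–9.57 CPM (log2 -0.49). On the log2(FPKM + 1) scale the NOD against ICR calls of these 3 were lost (adjusted p = 0.527 for Mxi1, 0.359 for Lnx2 and 0.507 for Fhdc1).

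No count was found in any of the 5 ICR libraries for 7 held genes, and none was at 0 in all 10 NOD libraries. Against a floor of 3 counts per library, 0.0660 CPM on average over ICR, the NOD means were at least 9.08-fold higher for the angiopoietin Angpt4 (0.599 ± 0.323 CPM, SD, n = 10), at least 5.20-fold higher for Ceacam16, at least 3.67-fold higher for the GABA-making enzyme Gad1 and at least 3.47-fold higher for Klra5. The other 3 were the unnamed genes Gm11592 (at least 6.03-fold higher), 2010204K13Rik (at least 4.99-fold higher) and Gm48609 (at least 4.29-fold higher). All 7 were low in NOD too, and the floors cover counting error only. In the opposite direction Raet1e, a ligand of the activating NK receptor NKG2D, had 3.11, 0.576, 4.36, 5.8 and 3.72 CPM in control 1 to 5 and was at 0 in 9 of 10 NOD libraries, with 0.066 CPM in model 5.

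Of the 292 held genes 103 had another held gene within 500 kb, and 8 neighbourhoods of at least 3 such genes formed. How many would lie this close among equally many tested genes was not computed, so these counts do not show clustering. The neighbourhood with the most members was the Ly49 cluster of NK receptors on chromosome 6 (chr6:129898996-130386874, GRCm38), where 5 of 9 tested genes were held and all 5 were higher in NOD. Of all tested genes 1.61% were held, but each neighbourhood is drawn from held gene to held gene. A high held share inside a neighbourhood, here and below, is thus fixed by how it was drawn. Klra7 stood at 0.28, 0.216, 0, 0.3 and 0.35 CPM in control 1 to 5, 8.05, 11.3, 6.33, 3.9 and 4.62 CPM in model 1 to 5 and 2.18, 5.22, 2.31, 3.68 and 5.71 CPM in SJQYD 1 to 5. Klra7 had a log2 fold change of 4.45 ± 0.52 SE, with an edgeR adjusted p of 0.000137. The treated libraries covered the lower part of the NOD range, and no ICR library came near it. Klra1 (0–0.488 against 1.76–8.25 CPM, log2 fold change 4.56 ± 0.65 SE, edgeR adjusted p = 0.000757) and Klra8 (0–0.244 against 0.591–4.06 CPM, log2 fold change 4.29 ± 0.74 SE, edgeR adjusted p = 0.00253) followed, and without control 4 their changes were 5.45 and 5.15. Klra13-ps, a pseudogene of the cluster, ran over 0–0.867 CPM in ICR and 2.43–11.8 CPM in NOD (log2 4.32 ± 0.75, SE, and 5.22 without control 1), and Klra5 over 0.0575–0.759 CPM in NOD. Ly49 genes differ in number and sequence between mouse strains, as background, and Klra8 has a near-identical copy.

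Another neighbourhood on chromosome 6 moved the other way (chr6:133292216-133767404), with 3 of 4 tested genes held and all lower in NOD. Gm5886, a predicted gene, ranged most widely of all, with 5788, 871, 383, 21356 and 1377 CPM in control 1 to 5, 39.9, 46.5, 28.03, 51.1 and 73.2 CPM in model 1 to 5 and 0.746, 15.6, 11.2, 12.6 and 16.5 CPM in SJQYD 1 to 5 (log2 fold change -8.0 ± 0.95 SE, edgeR adjusted p = 0.000353). Without control 4 the Gm5886 change was -6.50. Control 4 stood far above the other ICR libraries, and SJQYD 1 far below the other treated ones. Gm44239 ran over 4.64–27.8 CPM in ICR and 0–0.419 CPM in NOD (log2 -6.44 ± 0.79, SE; -5.85 without control 1 and -7.67 without SJQYD 3). 5530400C23Rik ran over 0.451–4.55 and 0–0.359 CPM (log2 -7.3 ± 1.05, SE; -7.98 without model 1), and it has a near-identical copy.

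The Trim genes on chromosome 7 (chr7:104263386-104507849) split by direction within 1 cluster. Trim5 and its kin encode ring finger proteins, some of which restrict retroviruses. Trim30d rose from 0–0.37 CPM in ICR to 0.755–4.03 CPM in NOD (log2 fold change 2.99 ± 0.55 SE, edgeR adjusted p = 0.00325) and Trim5 from 0.144–3.16 CPM in ICR to 4.22–7.29 CPM in NOD (log2 fold change 2.12 ± 0.5 SE, edgeR adjusted p = 0.0177), while Trim12c fell from 6.27–20.01 CPM in ICR to 1.14–2.62 CPM in NOD (log2 fold change -2.66 ± 0.24 SE, edgeR adjusted p = 4.93e-06). Trim5 and Trim12c have near-identical copies, and the sums over copies kept their directions without overlap (1.43 ± 1.20 to 5.92 ± 1.14 CPM for Trim5 and 10.9 ± 6.17 to 1.79 ± 0.484 CPM for Trim12c). Of the 10 tested members of the Trim5, Trim12 and Trim30 family 3 rose, 1 fell (2 without SJQYD 1) and 3 were held.

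On chromosome 8 (chr8:94170748-94527272) Nlrc5, 9330175E14Rik and Gm45774 were all higher in NOD. The transcript 9330175E14Rik overlaps Nlrc5 on the opposite strand and ran over 0.56–4.02 CPM in ICR and 4.38–12.8 CPM in NOD (log2 1.9 ± 0.47, SE). Whether the counting used strand is not given in the sources used here, so the reads of both cannot be told apart. The same limit holds for Dcdc2b, which lies inside Tmem234 on the opposite strand (chr4:129105548-129624059). Tmem234 rose from 122–181 CPM in ICR to 217–369 CPM in NOD (log2 fold change 0.98 ± 0.15 SE, edgeR adjusted p = 0.00108), Dcdc2b was at 0.252–0.375 and 0.533–1.11 CPM (log2 fold change 1.15 ± 0.29 SE, edgeR adjusted p = 0.021; call lost without control 3, adjusted p = 0.0516), and Tmem54 nearby fell from 0.504–1.71 CPM in ICR to 0.0755–0.227 CPM in NOD (log2 fold change -2.7 ± 0.39 SE, edgeR adjusted p = 0.000519).

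On chromosome 15 Tob2, given above, was higher in NOD. On the same chromosome the isopeptidase Desi1 fell from 9.21–15.2 CPM in ICR to 3.84–6.06 CPM in NOD (log2 fold change -1.25 ± 0.13 SE, edgeR adjusted p = 1.97e-05) and the cytochrome P450 Cyp2d22 from 25.4–42.1 CPM in ICR to 11.7–19.1 CPM in NOD (log2 fold change -1.19 ± 0.12 SE, edgeR adjusted p = 2.44e-05). Both are held, so by definition neither overlapped between strains. On chromosome 4 (chr4:155869546-156016612) Tnfrsf4, the receptor OX40 carried by T cells, rose from 0.188–1.84 CPM in ICR to 2.28–6.32 CPM in NOD (log2 fold change 2.26 ± 0.43 SE, edgeR adjusted p = 0.00397, and 3.01 without control 2), next to Ints11, the nuclease of the Integrator complex (log2 0.48 ± 0.09, SE), and Ube2j2. On chromosome 17 (chr17:30004733-30877365) Btbd9 rose from 8.7–10.9 CPM in ICR to 13.8–28.5 CPM in NOD (log2 fold change 0.96 ± 0.13 SE, edgeR adjusted p = 0.000253), the axonemal dynein Dnah8 had 0.112–0.432 against 0.604–7.81 CPM (log2 fold change 3.09 ± 0.66 SE, edgeR adjusted p = 0.0098, but 0.197 with voom), and Zfand3 fell from 22.9–26.5 CPM in ICR to 14.5–22 CPM in NOD (log2 fold change -0.49 ± 0.08 SE, edgeR adjusted p = 0.00111).

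Antigen presentation by MHC class I was higher in NOD in part of its genes. Of 16 tested class I chains 6 rose and 0 fell, where 4.31% of all tested genes rose and 5.78% fell. These shares are the background for each pooled list count below and for the Trim family above. For held counts the background is 0.788% of tested genes higher and 0.822% lower. The median log2 fold change was 0.89 beside 0.04 over all genes, and 1 chain was held. Without control 1, 3 or 4 only 3 rose, and 1 fell without control 3, 4 or 5. Without control 2, as without the 3 parotid-rich libraries, 9 rose and 5 were held, and 4 rose without SJQYD 3. H2-T10, a nonclassical chain with a near-identical copy, was that gene, at 11.3, 18.2, 23.5, 16.7 and 30.3 CPM in control 1 to 5, 52.5, 44.2, 60.01, 51.7 and 39.2 CPM in model 1 to 5 and 38.98, 47.5, 39.4, 31.5 and 39.2 CPM in SJQYD 1 to 5. H2-T10 had a log2 fold change of 1.14 ± 0.18 SE, with an edgeR adjusted p of 0.00141. Its lowest NOD library stood just above control 5, the highest ICR library, and with the copy the H2-T10 sum overlapped (34.5 ± 11.3 against 55.3 ± 10.4 CPM). H2-Q4 read 16.3, 52.5, 23.1, 21.4 and 33.5 CPM in control 1 to 5 and 41.7, 73.4 and 86.2 CPM as lowest, median and highest in NOD (log2 fold change 1.23 ± 0.24 SE, edgeR adjusted p = 0.00609), with control 2 inside the NOD range. H2-T24 was the exception by treatment, at 3.58–6.996 CPM in ICR, 4.39–7.23 CPM in model and 10.7–12.8 CPM in SJQYD libraries (log2 fold change 0.67 ± 0.15 SE, edgeR adjusted p = 0.0113; SJQYD minus model 1.03 ± 0.17 SE, edgeR adjusted p = 0.0034), and with 1 mean for all NOD libraries its adjusted p was 0.088.

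B2m, the light chain of all class I molecules (chr2:122147686-122153083), stood at 75.7, 150.1, 104, 86.7 and 195 CPM in control 1 to 5, 344, 265, 511, 319 and 282 CPM in model 1 to 5 and 135, 169.6, 142, 109.5 and 165 CPM in SJQYD 1 to 5. B2m had a log2 fold change of 0.87 ± 0.22 SE, with an edgeR adjusted p of 0.0194. The untreated NOD libraries were all above the ICR ones, and the treated ones overlapped with them, so B2m was called without treatment and not with it (adjusted p = 0.0036 without and 0.583 with SJQYD). Treated and untreated NOD glands differed (SJQYD minus model -1.25 ± 0.24 SE, edgeR adjusted p = 0.0103). The pooled B2m call was lost without control 1, 3 or 4 (adjusted p = 0.0603, 0.056 and 0.0561) and with 1 mean for all NOD libraries (0.101).

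Among 13 genes that cut and load class I peptides 5 rose and 0 fell, with Nlrc5 held. The rises numbered 3 without control 1, 3 or 4 and 8 without model 4, while 2 fell without control 2 and 1 without SJQYD 5. Nlrc5 was not held without control 3 or model 2, and 2 genes were held without control 2. Psmb8, a subunit of the immunoproteasome, read 11.4, 29.5, 15.5, 14.2 and 33.9 CPM in control 1 to 5, 77.1, 70.5, 67.02, 65.4 and 55.8 CPM in model 1 to 5 and 29.2, 62.7, 41.6, 29.9 and 51.9 CPM in SJQYD 1 to 5. Psmb8 had a log2 fold change of 1.36 ± 0.27 SE, with an edgeR adjusted p of 0.00618. Tap1, a subunit of the peptide transporter, read 11.2–33.8 CPM in ICR, 39.3–60.1 CPM in model and 24.2–38.7 CPM in SJQYD libraries (log2 fold change 1.08 ± 0.25 SE, edgeR adjusted p = 0.0136). In both genes control 2 reached into the range of the treated NOD libraries, and in Psmb8 control 5 reached further into it, at 33.9 CPM. All untreated NOD libraries were above ICR in both.

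Class II gave fewer calls. Of 11 tested genes 1 rose and 0 fell, with a median of 0.56, and the count was 5 without control 2, with 1 held, and 0 without control 1 or 3. H2-DMa, which loads peptides onto class II, was that gene, at 5.12–10.2 CPM in ICR and 10.1, 10.9 and 12.8 CPM in NOD (log2 fold change 0.56 ± 0.14 SE, edgeR adjusted p = 0.022), and its call was lost without control 1 or 3 (adjusted p = 0.0593 and 0.0636). H2-Ab1, a class II beta chain, did not pass in edgeR at 21.8–66.9 CPM in ICR and 29.5, 55.4 and 98.2 CPM in NOD. H2-Ab1 had a log2 fold change of 0.54 ± 0.28 SE, with an edgeR adjusted p of 0.229, while on log2(FPKM + 1) the adjusted p was 0.0201. H2-Ea-ps, the gene of the class II E alpha chain, is known to be silent in NOD mice, and it did not pass the filter on low counts. It had 607, 1189, 25, 0 and 0 counts in control 1 to 5 and 0 to 8 counts in the NOD libraries, so ICR libraries differed among themselves.

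In the type I interferon response 5 of 32 tested genes rose and 0 fell, where 4.31% of all tested genes rose and 5.78% fell. None was held, and the median was 0.39. Leaving out 1 library gave 1 to 6 rises, with at most 3 on leaving out any 1 of control 1, 3 and 4, model 1, 2 and 5 and SJQYD 1, 2, 3 and 5, and 1 gene was held without SJQYD 3. Ifit1, which binds viral RNA, read 1.34, 1.39, 0.69, 1.01 and 1.46 CPM in control 1 to 5, 5.75, 3.33, 3.74, 4.88 and 5.18 CPM in model 1 to 5 and 2.46, 3.99, 1.16, 1.49 and 1.76 CPM in SJQYD 1 to 5. Ifit1 had a log2 fold change of 1.42 ± 0.28 SE, with an edgeR adjusted p of 0.00589. Its untreated NOD values were all above ICR, while SJQYD 3 and SJQYD 4 fell within or near the ICR range. Stat2, a transducer of interferon signals, had 37.99–53.9 CPM in ICR and 46.7, 60.1 and 89.3 CPM in NOD (log2 fold change 0.56 ± 0.15 SE, edgeR adjusted p = 0.0247; lost without control 3 or 4, adjusted p = 0.068 and 0.0664, and at the threshold without control 5, 0.05). Oas1b, of the RNA-sensing synthetases, had 3.14–8.95 and 6.83, 10.4 and 12.8 CPM (log2 fold change 0.78 ± 0.22 SE, edgeR adjusted p = 0.035) and lost its call when any 1 of 9 libraries was left out (control 3, 4 or 5, model 1, 2, 3 or 5, SJQYD 2 or 5, adjusted p from 0.0511 to 0.0934). Against control, 7 members rose in untreated NOD, and 1 rose and 1 fell in treated NOD, while 5 were lower and 0 higher in treated than in untreated NOD. Of all tested genes 2.57% rose in untreated NOD, and 5.22% rose and 5.9% fell in treated NOD. Between treated and untreated NOD 0.838% of all tested genes were lower and 1.91% higher with SJQYD.

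The interferon gamma response gave 6 rises and 0 falls among 22 genes, none held, with a median of 0.72. Without the 3 parotid-rich libraries 12 rose and 5 were held. The rises numbered 3 without control 1 or 4 and 2 without control 3, and the held genes numbered 1 without control 2, 2 without control 5 and 3 without SJQYD 1. Iigp1, a GTPase that attacks the vacuoles of parasites, read 3.83, 4.9, 1.77, 3.32 and 5.12 CPM in control 1 to 5, 15.4, 18.2, 13.3, 10.01 and 15.1 CPM in model 1 to 5 and 4.61, 12.5, 7.71, 5.44 and 8.11 CPM in SJQYD 1 to 5. Iigp1 had a log2 fold change of 1.47 ± 0.26 SE, with an edgeR adjusted p of 0.00318. The related GTPases Irgm1 (9.36–14.97 against 14.7, 18.99 and 24.7 CPM, log2 fold change 0.66 ± 0.13 SE, edgeR adjusted p = 0.00646) and Igtp (3.19–9.56 against 6.51, 15.4 and 27.8 CPM, log2 fold change 1.36 ± 0.33 SE, edgeR adjusted p = 0.02; lost without control 1 or 3, adjusted p = 0.0603 and 0.0571) also rose. In all 3 genes the highest value was in an untreated NOD library, and the ranges of treated and untreated NOD overlapped. Against control, 9 of the 22 rose in untreated and 2 in treated NOD, where 2.57% and 5.22% of all tested genes rose. In treated NOD 1 was lower than in untreated NOD, beside 0.838% of all tested genes.

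**Figure D4:**
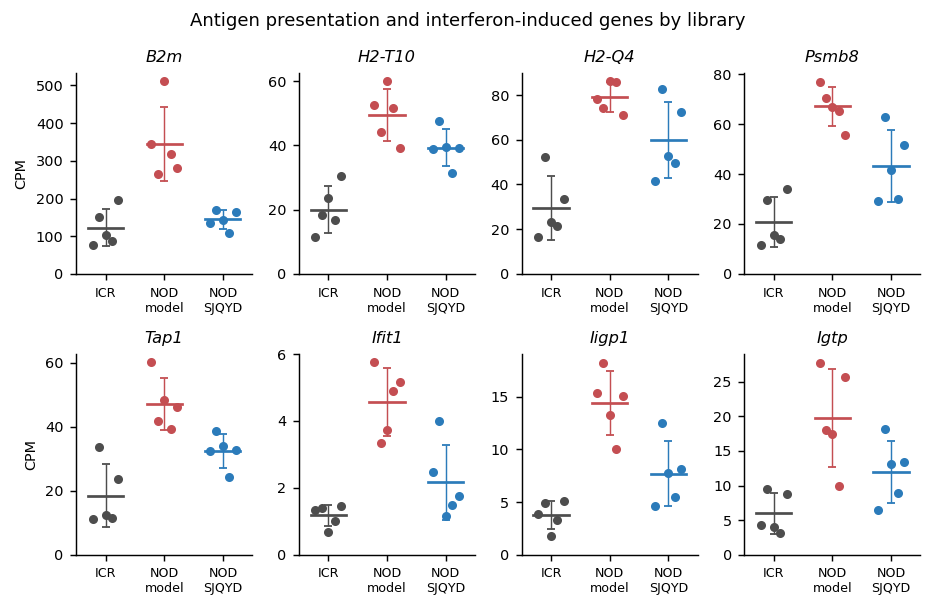
CPM of 8 genes of antigen presentation and the interferon response (y axis of each panel, from 0) in ICR (grey), untreated NOD (red) and treated NOD (blue), with 1 point per library, the mean as a line and 1 SD as an error bar (n = 5). Untreated NOD libraries are highest in most panels, and treated ones lie between them and ICR; in B2m the treated points of 109.5–169.6 CPM overlap with the ICR points of 75.7–195 CPM.

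Promoters of these genes are known to carry the interferon-stimulated response element (ISRE) or the gamma-activated site (GAS). Of 83 tested members of the 4 lists of class I, peptide processing and both interferon responses, 60 matched a RefSeq promoter by symbol (GRCm38.p6, 250 bases before to 50 after the start). The ISRE core, GAAA then any 2 bases then GAAA, searched on both strands, was in 28 of the 60 (46.7%) and in 3.49% of 27025 promoters of the same length. The GAS pattern TTCNNNGAA, whose letters can overlap an ISRE, was in 21.7% and 8.35%. Among the 14 called members with a promoter the ISRE core was in 6 (42.9%) and the GAS pattern in 4 (28.6%), beside 46.7% and 21.7% of the 60. Neither was found for H2-Q4, H2-Q6, Psmb9, Tap1, Cxcl9 or Cd274. The 250 bases before the starts of B2m (chr2:122147437-122147686, plus strand), called in untreated NOD alone, and Igtp (chr11:58199306-58199555, plus strand) are shown, with matches in capitals.
B2m: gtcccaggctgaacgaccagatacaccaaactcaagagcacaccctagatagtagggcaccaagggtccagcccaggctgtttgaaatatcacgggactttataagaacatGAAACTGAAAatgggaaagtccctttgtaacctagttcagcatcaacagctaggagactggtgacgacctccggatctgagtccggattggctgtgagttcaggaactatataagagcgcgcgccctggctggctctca
Igtp: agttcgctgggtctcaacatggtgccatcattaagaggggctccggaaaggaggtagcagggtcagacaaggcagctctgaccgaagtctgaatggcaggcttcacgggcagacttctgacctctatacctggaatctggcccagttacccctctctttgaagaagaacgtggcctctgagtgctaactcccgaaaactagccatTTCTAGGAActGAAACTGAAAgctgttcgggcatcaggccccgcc
In B2m the capitals are 1 ISRE core, and in Igtp a GAS pattern stands just before an ISRE core. A match is a description of letters, and the promoters of the other called members are summarised in the counts above.

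Lymphocyte genes gave few calls on all 15 libraries and more of them without control 2. Of 20 T cell genes 0 were called in edgeR (median log2 1.32), 2 had an unadjusted p under 0.05, DESeq2 called 2, voom called 0, and without control 2 the edgeR count was 13. The summed T cell list stood at 139 CPM in control 2 and at 9.14 to 23.2 CPM in the other ICR libraries, against 41.6 to 291 CPM in model and 17.2 to 183 CPM in SJQYD libraries. Cd3e, which signals for the T cell antigen receptor, had 0.364, 3.85, 0.271, 0.188 and 0.453 CPM in control 1 to 5, 10.7, 2.04, 1.12, 1.59 and 8.02 CPM in model 1 to 5 and 0.474, 1.78, 3.77, 0.378 and 1.43 CPM in SJQYD 1 to 5. Cd3e had a log2 fold change of 1.38 ± 0.87 SE, with an edgeR adjusted p of 0.345. Control 2 was the 1 ICR library above 1 CPM, and without it the change was 3.08 with an adjusted p of 0.0247.

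Of 20 B cell genes 1 rose (median 1.01), where 15 did so without control 2 (2 of them held), 2 without control 3 or SJQYD 1 and 0 without control 1, 4 or 5. The B cell sum was 186 CPM in control 2 and 11.9 to 52.0 CPM in the other ICR libraries, against 51.8 to 259 CPM in NOD. Lymph node genes were also high in control 2, at 84.1 CPM against 9.93 to 14.4 CPM in the other ICR libraries, and in model 1 (225 CPM), model 5 (155 CPM) and SJQYD 3 (110.3 CPM). The part of lymph node tissue in these results was not tested.

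Plasma cell genes rose in 3 of 23 (median 1.16), with Iglc1 held, where 4.31% of all genes rose. DESeq2 called 9 and voom 6, and 5 rose without control 2 or control 4. The held genes numbered 4 without control 4, 2 without control 2, control 3, model 3 or SJQYD 4, and 0 without control 1, control 5, model 1 or model 2. Irf4, a factor of plasma cell formation, was at 0.246–1.55 CPM in ICR and 1.46, 2.87 and 3.91 CPM in NOD. Irf4 had a log2 fold change of 1.67 ± 0.39 SE, with an edgeR adjusted p of 0.0139. Iglc2, a lambda constant segment whose sum with 2 near-identical copies did not overlap, was at 0–5.8 and 7.89, 14.5 and 18.9 CPM (log2 fold change 2.18 ± 0.63 SE, edgeR adjusted p = 0.0442), a call lost when any 1 library other than control 2 and control 3 was left out (adjusted p from 0.0518 to 0.11). Ighm, the heavy chain of IgM, did not pass in edgeR (4.8–35.9 against 12.1, 62.7 and 146 CPM, log2 fold change 1.62 ± 0.54 SE, edgeR adjusted p = 0.0757). Ighm did pass in DESeq2 (adjusted p = 0.0134), in voom (0.0353), on log2(FPKM + 1) (0.00899) and in edgeR without SJQYD 1 (0.0445). Cxcl13, a chemokine that draws B cells, did not pass in edgeR either (0–3.94 against 0.959, 5.87 and 12.5 CPM, log2 fold change 1.58 ± 0.66 SE, edgeR adjusted p = 0.148). On log2(FPKM + 1) the adjusted p of Cxcl13 was 0.0059.

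Of 22 NK lectin genes 6 rose, 5 of them held, where 0.788% of all tested genes were held higher (1 fell without SJQYD 4). Among 15 cytotoxic genes 1 was held, Ctsw, and 0 were without SJQYD 2. In that list 2 genes rose, and 1 did on leaving out any 1 of control 1, 3 and 5, model 2 and SJQYD 3, 4 and 5. They were Ctsw and Gzmk, a granzyme that was at 0 in 4 of 5 ICR libraries and reached at most 0.613 CPM in NOD (adjusted p = 0.0354, lost when any 1 of 10 libraries was left out, namely all but control 4, model 1, 4 and 5 and SJQYD 2, at 0.0504 to 0.0921; the fitted change was 3.68 and 6.83 without control 4). Of 25 macrophage and dendritic cell genes 3 rose and 0 fell, none held (1 without control 2 or model 4). Batf3, a factor of cross-presenting dendritic cells, was at 0.263–0.828 CPM in ICR and 0.77, 1.62 and 2.96 CPM in NOD. Batf3 had a log2 fold change of 1.65 ± 0.34 SE, with an edgeR adjusted p of 0.00664. Cd86, a costimulator, was at 1.31–2.08 CPM in ICR, 3.33–4.57 CPM in model and 1.6–3.06 CPM in SJQYD libraries (log2 fold change 0.81 ± 0.19 SE, edgeR adjusted p = 0.0124; SJQYD minus model -0.83 ± 0.21 SE, edgeR adjusted p = 0.0398). Fcgr1, the high-affinity IgG receptor, was at 1.28–2.07 and 1.64, 2.92 and 4.63 CPM (log2 fold change 0.65 ± 0.19 SE, edgeR adjusted p = 0.0422), and its call was lost when any 1 library except model 1, 4 and 5 and SJQYD 1 was left out (0.0511 to 0.0866).

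Of 22 candidate genes from NOD susceptibility loci 3 rose, B2m, Fcgr1 and Cd101, and Cd101 was held. The rises numbered 1 without control 1, 3 or 4, and none was held on leaving out any 1 of control 1, 3, 4 and 5 and model 1, 2, 3 and 5. Cd101, an inhibitory receptor of myeloid and T cells, had counts in 1 of 5 ICR libraries (0.072 CPM in control 2) and 0.113, 0.25 and 0.314 CPM in NOD (log2 fold change 3.65 ± 0.88 SE, edgeR adjusted p = 0.0157). Without control 2 the Cd101 change was 6.78. Among 24 genes of NF-kB, adhesion and cytokine signalling 4 rose and 0 fell, beside 4.31% and 5.78% of all genes. The rises numbered 8 without control 2, 2 without control 1 or 4 and 1 without control 3, and 1 gene was held without model 4. Among 23 genes of Toll-like receptors and inflammasomes 3 rose and 0 fell, with 5 rises without control 2 and 6 without the 3 parotid-rich libraries. None was held, and 1 was held without control 2 or SJQYD 1. Of 20 chemokine and lymphoid organisation genes 1 rose and 1 fell, with 2 rises without control 2 or 5 and 0 without control 1, control 3, control 4 or SJQYD 4. The gene that fell was held, and 0 were held without control 3, control 4, model 2, model 3 or SJQYD 1.

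In the pooled comparison the secretory machinery moved the other way on the TMM scale. Of 27 genes of folding and stress in the endoplasmic reticulum 1 rose and 6 fell, none held, with a median of -0.28. Dnajc3, a co-chaperone, read 102, 73.97, 101, 107 and 111 CPM in control 1 to 5 and 43, 64.9 and 79.02 CPM as lowest, median and highest in NOD (log2 fold change -0.63 ± 0.14 SE, edgeR adjusted p = 0.0104), and Canx, the lectin chaperone calnexin, 50.3–76.4 and 28.3, 43.4 and 53.1 CPM (log2 fold change -0.56 ± 0.14 SE, edgeR adjusted p = 0.0161; lost without control 1 or 5, adjusted p = 0.0621 and 0.0607). Ddit3, the stress factor CHOP, rose instead, though its sum with a near-identical copy overlapped, at 9.34–13.5 CPM in ICR, 11.2–20.7 CPM in model and 15.3–40.3 CPM in SJQYD libraries (log2 fold change 0.91 ± 0.21 SE, edgeR adjusted p = 0.0145). On log2(FPKM + 1) the list turned to 4 higher and 0 lower with a median of 0.24, and Dnajc3 and Canx were no longer called (0.659 and 0.895). Without control 2 the count was 1 higher and 10 lower, 2 of these held. The falls numbered 2 without control 1 or 5 and 3 without control 3, and 1 was held without SJQYD 1. The groups differed by treatment. Against control 0 rose and 9 fell in untreated NOD, where 2.57% of all tested genes rose and 2.5% fell. In treated NOD 5 rose and 2 fell, where 5.22% of all tested genes rose and 5.9% fell. Between treated and untreated NOD 7 were higher and 0 lower with SJQYD, beside 1.91% and 0.838% of all tested genes.

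Acinar secretory products gave 1 rise and 5 falls among 17 tested, with Agr2 held and a median of -0.66. The falls numbered 2 or 3 on leaving out any 1 of 12 libraries, all but control 2, SJQYD 1 and SJQYD 5, and 2 genes were held without control 2 or model 4. On log2(FPKM + 1) 1 rose and 1 fell. Prlr, the prolactin receptor, whose sum with a near-identical copy overlapped, was at 20.8, 10.6, 18.6, 13.03 and 16.8 CPM in control 1 to 5 and 6.95, 8.51 and 12.4 CPM in NOD (log2 fold change -0.84 ± 0.15 SE, edgeR adjusted p = 0.00327, and 0.259 on log2(FPKM + 1)). Dmbt1, a mucin-like defence protein, was at 0.448, 2.7, 0, 1.15 and 0.206 CPM in control 1 to 5, 42.8, 5.23, 2.38, 49.4 and 14.9 CPM in model 1 to 5 and 139, 54.9, 74.8, 44.2 and 0.0699 CPM in SJQYD 1 to 5. Dmbt1 had a log2 fold change of 5.34 ± 1.41 SE, with an edgeR adjusted p of 0.0339. SJQYD 5 was below most ICR libraries, and the call was lost without control 1, 3, 4 or 5, model 1 or SJQYD 2 (0.0506 to 0.0878), and in voom (0.621), while the change was 6.33 without control 2.

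The genes of fluid secretion gave 0 rises and 2 falls among 17, and 3 rises and 0 falls on log2(FPKM + 1). No gene fell without control 1 or 5, 1 fell on leaving out any 1 of control 3 and 4, model 1, 2 and 5 and SJQYD 2, 4 and 5, 1 rose without model 4 and 1 was held without control 2. Aqp5, the water channel of the acinar cell, had 452, 345, 403, 464 and 336 CPM in control 1 to 5, 345, 359, 327, 429.7 and 252 CPM in model 1 to 5 and 573, 424, 509, 458 and 364 CPM in SJQYD 1 to 5. Aqp5 had a log2 fold change of -0.0035 ± 0.14 SE, with an edgeR adjusted p of 0.993. Chrm3, the muscarinic receptor that triggers saliva flow, had 1.11–10.9 CPM in ICR and 0.607, 5.77 and 8.54 CPM in NOD. Chrm3 had a log2 fold change of -0.42 ± 0.48 SE, with an edgeR adjusted p of 0.623. Neither passed the test, the strains overlapped in both, and the sign of each depended on the scale. Of 20 granular duct products 0 were called in edgeR (median -0.87), although 1 was higher and 11 lower at an unadjusted p under 0.05, and 2 fell in DESeq2, 2 in edgeR without SJQYD 5 and 0 in voom. Egf, the growth factor stored there, was at 89.3–557 CPM in ICR and 52.5, 83.8 and 237 CPM in NOD (log2 fold change -1.23 ± 0.46 SE, edgeR adjusted p = 0.11), and it passed without SJQYD 5 (0.0355), which alone of the NOD libraries reached 237 CPM.

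Nuclear genes of the respiratory chain gave 0 rises and 8 falls among 40, with Ndufs5 and Atp5g1 held and a median of -0.24. Against control 3 fell in untreated and 13 in treated NOD, where 2.5% and 5.9% of all tested genes fell. In neither did any of the 40 rise, and 0 were called between treated and untreated NOD. For Ndufs5 the sum with its copy overlapped between strains (44.4 ± 6.78 against 37.2 ± 3.35 CPM). Atp5g1, a subunit of the ATP synthase ring, read 62.9, 64.1, 85.3, 68.1 and 85.4 CPM in control 1 to 5 and 23.9, 31.7 and 47.6 CPM in NOD (log2 fold change -1.18 ± 0.15 SE, edgeR adjusted p = 0.000168), but its sum with a near-identical copy overlapped (100.6 ± 16.5 against 73.6 ± 8.56 CPM). Cox6a1, of cytochrome oxidase, read 66.8–118 and 43.6, 57.2 and 80.2 CPM (log2 fold change -0.67 ± 0.12 SE, edgeR adjusted p = 0.0027, and 0.556 on log2(FPKM + 1)). On that scale the list gave 9 rises and 2 falls and a median of 0.26, and on counts the falls numbered 14 without control 2, 4 without control 1 or 5 and 5 without SJQYD 2. Of 64 cytosolic ribosomal proteins 2 rose and 2 fell, no larger shares than the 4.31% and 5.78% of all tested genes. On log2(FPKM + 1) 31 rose and 1 fell. On counts 5 rose without control 2 and 4 without SJQYD 5, and 1 fell on leaving out any 1 of control 1, 4 and 5, model 2 and 5 and SJQYD 2, 4 and 5. The 3 held were Rpl26, Rpl30 and Rpl36, the last at 172–230.4 CPM in ICR and 253, 275 and 369 CPM in NOD (log2 fold change 0.55 ± 0.12 SE, edgeR adjusted p = 0.00927), and its sum with 8 copies did not overlap.

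The clock was the list in which treated and untreated NOD glands parted most in counts of calls. Of 19 tested clock genes 10 rose and 5 fell in the pooled comparison, but against control 0 rose and 3 fell in untreated NOD and 11 rose and 6 fell in treated NOD, and between treated and untreated NOD 10 were higher and 3 lower. Over all tested genes 2.57% rose and 2.5% fell in untreated NOD, and 5.22% rose and 5.9% fell in treated NOD. Between treated and untreated NOD 1.91% of all tested genes were higher and 0.838% lower. Arntl, the activator at the centre of the clock, stood at 37.2, 15.9, 24.2, 28.1 and 9.59 CPM in control 1 to 5, 12.8, 8.47, 12.9, 4.88 and 20.3 CPM in model 1 to 5 and 0.484, 0.824, 1.07, 1.13 and 1.07 CPM in SJQYD 1 to 5. Arntl had a log2 fold change of -2.81 ± 0.33 SE, with an edgeR adjusted p of 0.000199. The model libraries overlapped with ICR, and all SJQYD libraries were far below both. Cry2, a repressor of the clock, was at 3.81–5.59 CPM in ICR, 4.4–7.45 CPM in model and 13.9–23.2 CPM in SJQYD libraries (log2 fold change 1.08 ± 0.15 SE, edgeR adjusted p = 0.000442), and Npas2, a partner of Arntl, at 4.63–11.8, 3.59–9.05 and 0.282–0.978 CPM (log2 fold change -2.05 ± 0.27 SE, edgeR adjusted p = 0.000255). With 1 mean for all NOD libraries all 3 lost their calls (adjusted p = 0.172 for Arntl, 0.0579 for Cry2 and 0.219 for Npas2). The labels give no hour of collection, so treatment and time of day cannot be told apart for these genes. Rora, a nuclear receptor of the clock, was the 1 held member (not without control 1, control 4, model 1 or model 2), at 7.98–10.05 CPM in ICR and 5.11, 6.36 and 7.81 CPM in NOD (log2 fold change -0.58 ± 0.12 SE, edgeR adjusted p = 0.00657; 0.821 on log2(FPKM + 1)).

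Markers of adjoining tissues moved in parts. Of 8 skeletal muscle genes 3 rose and 0 fell, with Ryr1, the calcium release channel, held at 0–0.144 CPM in ICR and 0.215, 0.485 and 0.753 CPM in NOD (log2 fold change 2.71 ± 0.68 SE, edgeR adjusted p = 0.0196). Tnnt3, a troponin of fast muscle, was at 0 in all ICR libraries and at 0, 0.318 and 0.454 CPM in NOD, and Eno3, a muscle enolase, was at 7.8–19.2 and 17.4, 22.7 and 34.8 CPM (log2 fold change 0.87 ± 0.21 SE, edgeR adjusted p = 0.0181; lost without control 3, 0.0502). The muscle sum ran over 11.8 to 23.2 CPM in ICR, 23.1 to 39.1 CPM in model and 22.1 to 39.7 CPM in SJQYD libraries, and its part in other results was not tested. No muscle gene was held on leaving out any 1 of control 1, 3 and 4, model 1, 2 and 3 and SJQYD 2 and 3, and 2 were without control 2. Of 9 major urinary and lipocalin genes 2 rose, Mup5 and Slpi, both held, and 1 was held without control 1, control 5, model 1 or model 2.

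Adipocyte genes had a median of 3.41, with 0 of 11 called in edgeR, DESeq2 and voom and 5 at an unadjusted p under 0.05. In their sum model 2 stood at 751 CPM and SJQYD 5 at 490.5 CPM, and the rest at 29.9 to 74.5 CPM. The sublingual sum ran over 32.4 to 39855 CPM in ICR alone, and of 7 sublingual and 8 parotid genes edgeR, DESeq2 and voom called 0, with 0 and 1 at an unadjusted p under 0.05. The part of sublingual and fat tissue in the held differences was not tested, and for parotid tissue the counts without the 3 parotid-rich libraries are those given above.

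**Figure D5:**
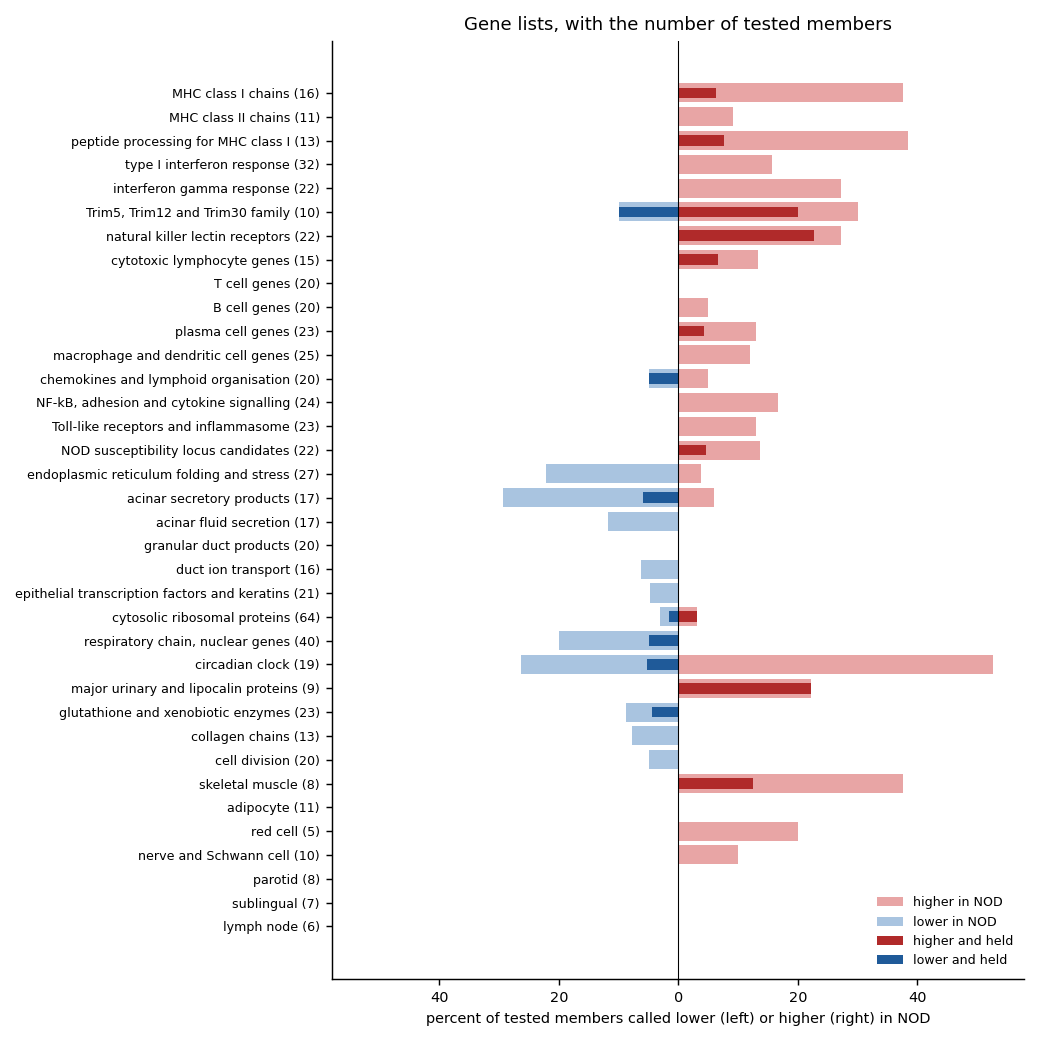
Percent of tested members of each gene list called higher (right, light red) or lower (left, light blue) in the pooled NOD libraries, with the number tested in brackets and the held members as narrow dark bars. NK lectin receptors, major urinary and lipocalin proteins and the Trim family have the longest dark bars to the right, and lists such as T cell genes have no call.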

How the data were processed

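Poly(A)-selected RNA of submandibular glands was sequenced as paired reads, per the labels' protocols. The submitters' processing notes give build mm9 and list HISAT2 2.0.4, StringTie 1.3.4d, cutadapt 1.9, edgeR, DESeq2 and UMI-tools with no stated role. Of 32385 genes matched between the authors' FPKM table and GENCODE vM21, 29470 (91.0%) have the GRCm38 coordinates, so GRCm38 is used. The main values are the deposited whole-number read counts per gene, with 55401 genes, of which 22922 have no count. The same counts stand in the deposited table beside FPKM values computed by the authors.

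Counts were analysed in R 4.3.3 with edgeR 4.0.16 (filterByExpr by group, TMM, robust quasi-likelihood fit with 3 group means, Benjamini-Hochberg adjustment over 18136 genes). The pooled contrast is the mean of model and SJQYD minus control. Copies were searched with BLAST+ 2.17.0+ among GENCODE vM21 transcripts (at least 95% identity over at least 50% of the shorter). Named genes are held genes of at least 5 CPM and 2-fold (the 15 largest rises and 15 largest falls, without predicted genes and pseudogenes), the called members among the 3 with the smallest p of each described list, members of neighbourhoods and 13 genes always given. One gene that this rule names is not reported here. A further 18 genes were chosen after their values were seen, among them the copies and the genes that differ between SJQYD and model. The members and lists were chosen with earlier results of these data known.

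Alternatives were RLE and upper-quartile scaling, other filters, DESeq2 1.42.0, voom with quality weights and FPKM fits in limma 3.58.1 (pseudocounts 1 and 0.1, at least 0.5 FPKM in 5 libraries), 1 mean for all NOD libraries, a replicate block and leaving out libraries. Counts of list members under 6 of these and without each library in turn were added after the data were seen. No 2 libraries of the same group were duplicates (lowest chi-square between libraries of a group 55.6 per gene). Pairs across groups were not compared in this way. Sample numbers shared between groups are not treated as pairs, since a correlation of deviations over 0.1 was not found in every same-numbered pair.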

Additional observations from a re-analysis of the deposited data

Results flagged for a closer look

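In 13 named genes the difference from ICR was not the same with and without SJQYD, by the edgeR test of SJQYD against model. The log2 difference of SJQYD minus model was -3.71 for Arntl, -3.01 for Npas2 and 1.58 for Cry2, all of the circadian clock. Antigen presentation genes split by direction, with -1.25 for B2m and -0.83 for the costimulator Cd86 against 1.03 for H2-T24. Among the genes held with and without SJQYD the difference was 0.96 for Gm26532, 0.71 for Snhg15, 0.68 for Rab3gap2 and 0.64 for Tob2, and -0.59 for Lnx2, -0.49 for Fhdc1 and -0.41 for Mxi1.

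In 24 of 333 groups of 5 libraries (111 named genes in 3 groups, on log2(CPM + 0.5)) 1 library stood far from the other 4, with a gap past Dixon's critical value of 0.710, and chance flags about 1 in 20 groups. Control 2 was that library in 5 groups, with 1.21 CPM of Rpl30-ps9, 9.89 CPM of Rab3gap2 and 74.0 CPM of Dnajc3 below the others, and 3.85 CPM of Cd3e and 0.0720 CPM of Cd101 above them. SJQYD 3 was that library in 5, low in Cyp2d22 (11.75 CPM), Sphk1 (9.19 CPM) and Snhg15 (21.3 CPM) and high in Rpl30 (31.9 CPM) and Gm44239 (0.419 CPM).

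In the other ICR libraries Tpm3-rs7 reached 11.7 CPM in control 1, Gzmk 0.0751 CPM in control 4 (with 0 in the other 4) and Chrm3 was lowest at 1.11 CPM in control 5. Among untreated NOD libraries Uox stood out at 0.388 CPM in model 1, Rpl36 at 337 CPM in model 2, Rgs12 at 15.6 CPM in model 3 and Ppp2r3a at 3.84 CPM in model 4. Model 5 stood out with 0.0990 CPM of Tnnt3 and 0.0660 CPM of Raet1e. Among treated ones Gm5886 was at 0.746 CPM in SJQYD 1, Chrm3 at 0.607 CPM in SJQYD 2 and Fhdc1 at 9.57 CPM in SJQYD 4, while SJQYD 5 had 237 CPM of Egf and 0.0699 CPM of Dmbt1.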

How the results depend on the processing

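The number of genes called between NOD and ICR ran from 983 without control 1 to 2657 without control 2 when each library was left out, and was 4328 on log2(FPKM + 1), 4896 on log2(FPKM + 0.1) and 541 at an adjusted p under 0.01, beside 1829. Calls of at least 2-fold, 483 in the main analysis, ran from 325 to 859 over the left-out libraries and were 750 with DESeq2, 305, 1209 and 259 on log2(FPKM + 1), on log2(FPKM + 0.1) and on log2(FPKM + 1) with no filter, 743 without the 3 parotid-rich libraries and 212 at an adjusted p under 0.01. Held genes, 292 in the main analysis, ran from 189 to 702 over the left-out libraries and were 454 on log2(FPKM + 0.1), 662 without the 3 parotid-rich libraries, 520 without these and SJQYD 3, and 113 at an adjusted p under 0.01. With 1 mean for all NOD libraries the held count could not be given. The replicate block gave 1659 called, 449 of them at least 2-fold, and 259 held, and with it Dmbt1 (adjusted p = 0.068), Fcgr1 (0.076), Iglc2 (0.0842) and Ryr1 (0.0522) lost their calls and Egf gained one (0.0449). The numbers do not pair the samples, since of 15 same-numbered pairs across groups 4 deviated together with a correlation over 0.1, 3 of them among the libraries numbered 4 (median 0.03, lowest -0.32).

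Of 104 called named genes 91 kept their call without each library in turn. Higher calls were 97.9, 98.2 and 95.6% of all calls in the FPKM fits. Signs turned for 4 named genes. Aqp5, at -0.00, was 0.0014 with upper-quartile scaling, 0.012 with no filter, 0.0011 with at least 1 CPM in 5 libraries, 0.50, 0.51 and 0.50 in the FPKM fits and 0.013 with 1 mean for all NOD libraries, and it ran from -0.060 to 0.055 over the left-out libraries, positive without control 1, control 4, model 3 (0.0048), model 5, SJQYD 2 or SJQYD 5. In the FPKM fits (pseudocount 1, pseudocount 0.1, and 1 with no filter) Chrm3 was 0.067, 0.16 and 0.067, Ube2j2 0.016, 0.015 and 0.016, and Zfand3 0.021, 0.023 and 0.021. The cause was not tested. Depth limits the genes at 0 in ICR, whose folds are lower bounds.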
